A study of Mus musculus with 45 samples.

Results

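Arpin is a small inhibitor of the Arp2/3 complex. Its transcript was followed here with 9 mouse genes of complex subunits: Actr2, Actr3, Arpc1a, Arpc1b, Arpc2, Arpc3, Arpc4, Arpc5 and Arpc5l. These 10 genes were taken by name out of 55401 genes in the count tables. Arpin was included because its level was higher in the Pkd1KO mice than in the other genotypes, so that difference is given as a description without a test, whereas the subunits were listed for their place in the complex. The libraries came from translating ribosome affinity purification (TRAP), in which mRNA bound to an EGFP-tagged ribosomal protein is pulled down from kidney lysate. Kidneys were taken at 7 weeks of age, on postnatal day 49, from 45 mice given doxycycline between days 28 and 42. Every mouse, controls included, carried single copies of the R26Rpl10a ribosome tag, of Pax8rtTA and of TetOCre. Noncystic mice were Pkd1fl/+ (8 males, 7 females), Pkd1KO mice were Pkd1fl/fl (7 males, 8 females), and Pkd1KO+ciliaKO mice were Pkd1fl/fl; Kif3afl/fl (9 males, 6 females). Pax8rtTA drives Cre in nephron epithelium, and the tag is made only where Cre has acted. Deletion is incomplete, so the tagged RNA averages recombined cells of several nephron segments, among them cells that keep a target allele. Marker genes of cell types outside the tubule were counted in the libraries as well (values below). The noncystic mice lose the same single Pkd1 copy under doxycycline and are heterozygous controls rather than wild type.

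The Arp2/3 complex starts a new actin filament on the side of an existing one and so builds the branched networks that push membranes forward, shape endosomes and brace epithelial junctions. The 2 actin-related proteins Arp2 and Arp3, encoded by Actr2 and Actr3, mimic a pair of actin monomers, and 5 further subunits hold them in place and clasp the mother filament. Nucleation is switched on by WASP, WAVE and WASH proteins, while Arpin carries an acidic tail like theirs, binds the complex without activating it, and acts downstream of Rac at the leading edge.

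Fragments counted on genes ranged from 80874556 to 132958186 per mouse, and 15991 genes were tested in males and 15968 in females. All 10 members passed the filter on low counts in both sexes. Kif3a, the targeted cilia gene, was read at 4.84 to 7.33 CPM (counts scaled by library size with TMM factors) in the 9 Pkd1KO+ciliaKO males and at 13.6 to 28.9 CPM in the other males, with no overlap. In females it went against the labels in 2 libraries: the library labelled noncystic female 5 held 6.62 CPM, in the range of the double knockouts, and the library labelled Pkd1KO+ciliaKO female 6 held 20.5 CPM, in the range of the noncystic females. Values without these 2 libraries stand beside the female results of Arpin, Arpc1b and the ratios, and beside each call of a member or regulator that they change. Pkd1 itself averaged 53.8 ± 14.6 CPM in noncystic, 39.5 ± 7.13 in Pkd1KO and 49.1 ± 16.1 in Pkd1KO+ciliaKO males. By the paper's methods Cre removes only some exons of Pkd1, so counts over the whole gene do not measure its deletion. Proximal tubule markers summed to between 4281 and 10385 CPM in each mouse, so tubule RNA was present in all libraries. Of 6 mast cell markers Cpa3, Cma1 and Mcpt4 were at 0 counts in 19, 18 and 17 of 45 mice. Kit, Tpsb2 and Ms4a2 were counted in every mouse (1392 to 4115, 1 to 125 and 6 to 851 counts). Markers of fibroblasts, macrophages and endothelium were also counted in every mouse, among them Col3a1 (6422 to 48979 counts), Csf1r (3105 to 11816) and Kdr (1738 to 9594). The proximal tubule gene Lrp2 held 231344 to 768490 counts. In such bulk material, fewer cells of a type and less RNA per cell cannot be told apart.

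The start sites of Arpin and of the 2 ARPC1 paralogs are shown because the inhibitor was higher in Pkd1KO while the paralogs, alternatives for 1 position in the complex, differed in their spread between mice. The sequences are the bases just before the annotated gene start in GRCm38.p6, from RefSeq promoter windows (250 bases before to 50 after the start), read 5′ to 3′ on the gene's strand at chr7:79935360-79935514 (minus) for Arpin, chr5:145083619-145083829 (plus) for Arpc1a and chr5:145114006-145114214 (plus) for Arpc1b. Capitals mark GGGCGG, the core of the GC box bound by Sp1-type factors, or its reverse complement.
Arpin: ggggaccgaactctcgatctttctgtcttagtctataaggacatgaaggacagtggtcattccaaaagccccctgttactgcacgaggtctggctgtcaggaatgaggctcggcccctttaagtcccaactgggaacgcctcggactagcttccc
Arpc1a: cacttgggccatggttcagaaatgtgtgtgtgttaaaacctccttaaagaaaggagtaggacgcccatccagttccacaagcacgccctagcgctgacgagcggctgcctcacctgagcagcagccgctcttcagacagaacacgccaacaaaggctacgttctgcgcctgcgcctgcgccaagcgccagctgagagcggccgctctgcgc
Arpc1b: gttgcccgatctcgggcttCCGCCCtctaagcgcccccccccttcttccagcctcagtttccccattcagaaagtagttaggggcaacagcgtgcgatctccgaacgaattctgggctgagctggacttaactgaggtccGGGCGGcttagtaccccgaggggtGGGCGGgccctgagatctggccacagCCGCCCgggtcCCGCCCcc
Arpc1b held 5 such hexamers in the stretch shown, and Arpc1a and Arpin held 0. A window was found for 9 of the 10 members, and of these 7 held GGGCGG on either strand, against 35.7% of 32851 mouse promoter windows of the same length. The whole window of Arpc1b held 7 and that of Arpin 1. The members' windows were mostly rich in G and C, at 60.0% for Arpin, 63.0% for Arpc1a and 69.3% for Arpc1b against a median of 52.7% over all windows. CCAAT stood in 2 of 9 windows (37.4% of all), CACGTG, the E-box, in 1 (7.15%), the CArG box of serum response factor in 1, that of Arpc4 (1.63%), and TGGGGGGT, part of the site of Gli-similar factors, in 0 (1.53%). Both strands were searched, GGGCGG and TGGGGGGT matches could share G bases, and a match describes letters in a window only.

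Arpin (ENSMUSG00000039043.5, chr7:79925361-79935359, minus strand, protein coding) was the member whose level moved with genotype. In noncystic males its lowest, median and highest levels were 32.5, 34.2 and 35.6 CPM. In Pkd1KO males they were 52.4, 53.5 and 59.6 CPM. In Pkd1KO+ciliaKO males they were 36.6, 42.8 and 46.0 CPM. On this scale the 3 male groups did not overlap: each Pkd1KO male lay above each Pkd1KO+ciliaKO male, and each of these above each noncystic male. In noncystic females Arpin ran from 32.8 through a median of 39.1 to 46.8 CPM. In Pkd1KO females it ran from 52.9 through 63.6 to 64.4 CPM. In Pkd1KO+ciliaKO females it ran from 38.5 through 45.1 to 50.8 CPM. All 8 Pkd1KO females lay above all other females, while the noncystic and double knockout ranges overlapped.

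**Figure D1:**
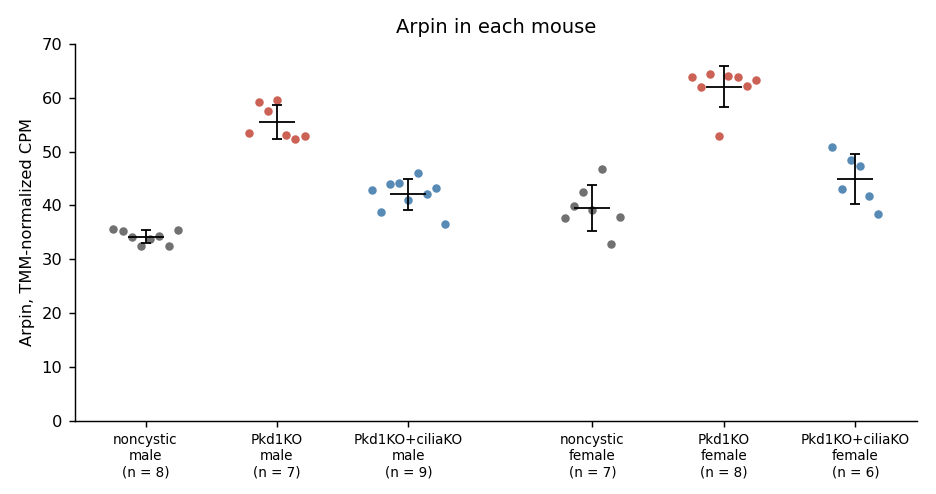
Arpin in TMM-normalized CPM (y axis) in each of 45 mice, by genotype and sex (x axis); points are mice, and the horizontal bar with whiskers is the mean ± SD of the group. The Pkd1KO mice lie between 52.4 and 64.4 CPM, above every mouse of the other genotypes of the same sex.

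The mean of Arpin in Pkd1KO was 1.62 times the noncystic mean in males (55.5 ± 3.19 against 34.2 ± 1.21 CPM, SD, n = 7 and 8) and 1.57 times in females (62.1 ± 3.78 against 39.5 ± 4.34, n = 8 and 7). Against Pkd1KO+ciliaKO it was 1.32 times as high in males (42.1 ± 2.89, n = 9) and 1.38 times in females (44.96 ± 4.68, n = 6). On the log2 scale these differences were 0.70 (SE 0.0491) and 0.65 (SE 0.0654) against noncystic, and 0.40 (SE 0.0558) and 0.46 (SE 0.0643) against Pkd1KO+ciliaKO, in males and females. They carry no test, since Arpin was chosen for them. Without the 2 females that went against their Kif3a label the female differences were 0.70 and 0.42. For orientation, groups that did not overlap with Pkd1KO higher were seen in 1.41% of genes against noncystic and 0.582% against Pkd1KO+ciliaKO in males, and in 0.626% and 2.02% in females. The deposited TPM correct for the summed exon length of each gene and were not rescaled between mice. On them the male difference from Pkd1KO+ciliaKO was 0.27 on the log2(TPM + 1) scale. In TPM the Pkd1KO mice still lay above all noncystic mice, but the separation from Pkd1KO+ciliaKO was lost: 2 of 7 Pkd1KO males (63.5 to 90.1 TPM) lay above all double knockouts (52.5 to 74.0 TPM), and 7 of 8 females, whose lowest value of 80.5 TPM was under the highest double knockout at 82.2 TPM. The nearest coding genes on either side of Arpin, Ap3s2 at a distance of 4711 bases and Zfp710 at 89454 bases, had log2 differences of -0.09 to 0.02 and -0.13 to 0.00 over the 6 genotype comparisons, with unadjusted p of 0.0751 or more in edgeR.

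Markers of some nephron segments moved in the same comparisons. Of 3 thick ascending limb markers, 1 passed in each of the 4 comparisons of Pkd1KO mice, where 6.3% of genes passed in males and 3.34% in females against noncystic, and 3.77% and 11.7% against Pkd1KO+ciliaKO. Slc12a1, the salt cotransporter of that segment, was lower in Pkd1KO than in noncystic males by -0.72 (adjusted p = 0.022), and than in Pkd1KO+ciliaKO males by -0.73 (adjusted p = 0.0454) and females by -0.53 (adjusted p = 0.00622). Cldn16, a tight junction protein of the segment, was lower than in noncystic females by -0.53 (adjusted p = 0.0466). The 3 markers summed to 1640 to 2975 CPM in Pkd1KO, 2014 to 4042 in noncystic and 1957 to 3675 in Pkd1KO+ciliaKO males, and to 2322 to 3885, 2828 to 3929 and 3095 to 4483 CPM in females, so all these ranges overlapped. Against Pkd1KO+ciliaKO, 1 of 3 distal convoluted tubule markers, Pvalb, was lower in both sexes (-2.37 and -1.68, adjusted p = 0.0139 and 0.0321), and 1 of 4 intercalated cell markers was lower in each, Foxi1 in males (-0.55, adjusted p = 0.041) and Atp6v1g3 in females (-0.36, adjusted p = 0.0251). Ms4a2 was the 1 mast cell gene that passed in Pkd1KO against noncystic males (3.31, adjusted p = 8.28e-05) and females (2.77, adjusted p = 0.00411). The part of these markers in the Arpin levels was not tested.

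The comparison of Pkd1KO+ciliaKO with noncystic mice asks what remained of the Arpin difference once Kif3a was deleted together with Pkd1. The choice of Arpin rested on Pkd1KO lying above both groups and not on their order, so a test is given. The same noncystic and double knockout mice served that choice, so the p-values here are not independent of it. In males Arpin was 1.23 times as high in the double knockouts as in the noncystic mice. The log2 difference was 0.30 (SE 0.0486, 95% interval 0.20 to 0.40, adjusted p = 0.000838, edgeR quasi-likelihood test), and each of 9 double knockout males lay above all 8 noncystic males. In this comparison 8.89% of genes passed the test, and 0.588% had double knockout males wholly above the noncystic ones. In females the double knockout mean was 1.14 times the noncystic mean, with a log2 difference of 0.18 (SE 0.0809, 95% interval 0.01 to 0.36, adjusted p = 0.206), and 3 of 6 double knockouts lay above all noncystic females. The female call turned on the libraries that went against their Kif3a label: without noncystic female 5 and Pkd1KO+ciliaKO female 6 the difference was 0.27 with an adjusted p of 0.0498. These 2 mice held the highest Arpin level of the noncystic females, 46.8 CPM, and the lowest of the double knockout females, 38.5 CPM. The difference between the sexes in this effect was 0.12 on the log2 scale (SE 0.0831), with an adjusted p of 1.00 for the interaction, for which 0.0316% of genes passed.

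Arpin also differed by sex in the absence of any homozygous knockout. Noncystic males were lower than noncystic females by a log2 difference of -0.19 (SE 0.0631, adjusted p = 0.0299, edgeR), and 6 of 7 females lay above all 8 males. Between the noncystic sexes 27.5% of genes passed the test, so a call here is common. This one was lost when any of 5 mice was left out: noncystic male 4 (adjusted p = 0.0546), male 7 (0.0523), female 2 (0.0533), female 3 (0.0565) or the library labelled noncystic female 5 (0.0702). Markers of tubule injury moved the same way, since 5 of 6 (Spp1, Vcam1, Lcn2, Sox9 and Havcr1) were lower in males and their summed level was 372 to 744 CPM in noncystic males against 1068 to 1528 CPM in noncystic females. Spp1 made up 90.3% to 97.4% of this sum in the 45 mice, and the other 5 markers summed to 14.0 to 68.9 CPM in noncystic males and 27.5 to 115 CPM in noncystic females. The part of these markers in the sex differences of the members was not tested.

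Of 9 subunits, 0 passed the edgeR test in each of 6 genotype comparisons, in which 6.3% of genes passed in males and 3.34% in females for Pkd1KO against noncystic, 3.77% and 11.7% for Pkd1KO against Pkd1KO+ciliaKO, and 8.89% and 2.54% for Pkd1KO+ciliaKO against noncystic. At an unadjusted p under 0.05 the counts in the same order were 1, 0, 1, 1, 0 and 2. Of all genes, 3536, 2612, 3153, 4419, 3887 and 3413 had such a p, of 15991 tested in males and 15968 in females. DESeq2 called 0 in all 6, and limma voom with quality weights called 1, Arpc5 in Pkd1KO+ciliaKO against noncystic females (-0.19, adjusted p = 0.0326). Leaving out any single mouse gave a count of 0 as well in each comparison, as did leaving out both females that went against their Kif3a label, or the 4 males that stood apart from their groups on the first principal component (noncystic 3, Pkd1KO 4, Pkd1KO+ciliaKO 6 and 8). The median size of a subunit's difference was 0.06 on the log2 scale in Pkd1KO against noncystic males and 0.02 in females. Over all genes tested the median was 0.14 and 0.10, without matching for expression level. In TPM the subunits stood between percentiles 63.7 and 97.5 of the coding genes.

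Each interval bounds what could have been missed for its own gene and comparison, not for all of them at once. Arpc1b apart, the 95% intervals of the 8 remaining subunits in Pkd1KO against noncystic mice reached from 0.887-fold to 1.16-fold in males and from 0.909-fold to 1.13-fold in females. In Pkd1KO against Pkd1KO+ciliaKO they reached from 0.849-fold to 1.26-fold in males and from 0.886-fold to 1.198-fold in females. In Pkd1KO+ciliaKO against noncystic mice the bounds were 0.844-fold and 1.15-fold in males, and 0.823-fold and 1.15-fold in females. With Arpc1b included, the upper bounds in males rose to 1.65-fold, 1.49-fold and 1.19-fold in the same order of comparisons. Those in females did not change.

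**Figure D2:**
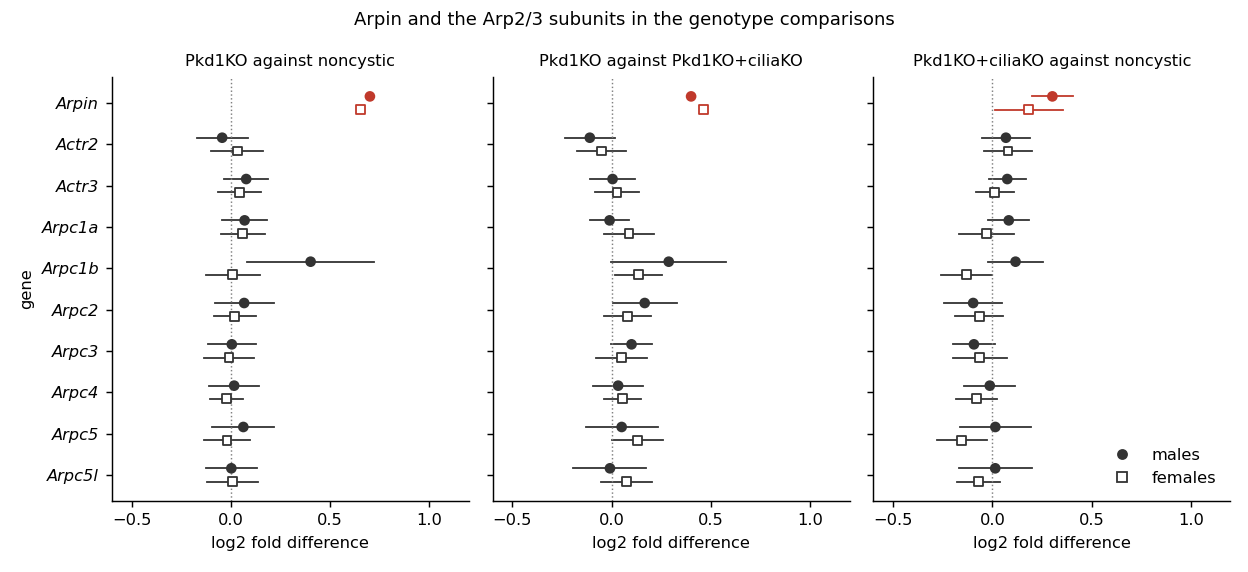
Log2 fold differences (x axis) of Arpin and the 9 Arp2/3 subunits (y axis) in the 3 genotype comparisons, males as filled circles and females as open squares; lines are 95% intervals from edgeR, and Arpin has none in the Pkd1KO panels because it was chosen on those comparisons. Arpin lies at 0.70 and 0.65 in the left panel, and among the subunits the male Arpc1b value of 0.40 stands apart.

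By role, the actin-related pair came first. Actr2, the gene of Arp2, was read at 206 to 293 CPM over all mice, with log2 differences of -0.11 to 0.08 over the 6 genotype comparisons. Actr3, the gene of Arp3, was read at 176 to 223 CPM, with differences of 0.00 to 0.08. Neither passed the test in any of them.

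Arpc2 and Arpc4 form the core that clasps the mother filament. Arpc2 ran from 179 to 269 CPM, with differences of -0.10 to 0.17; the highest, in Pkd1KO against Pkd1KO+ciliaKO males, had an unadjusted p of 0.0433 and an adjusted p of 0.237. Arpc4 ran from 63.1 to 83.1 CPM and differed by -0.08 to 0.06. Arpc3, the small subunit that bridges to Arp3, ran from 68.6 to 92.9 CPM and differed by -0.09 to 0.10. Arpc4 shares 283 exon bases (12.2% of its exons) with Ttll3, whose 74 to 267 counts are few beside the 5422 or more of Arpc4.

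Arpc5 and Arpc5l are alternatives for the subunit that tethers Arp2. Arpc5 ran from 134 to 201 CPM. In noncystic females its lowest, median and highest levels were 154, 167 and 187 CPM, and in Pkd1KO+ciliaKO females 140, 150 and 169 CPM. These ranges overlapped, with 3 of 7 noncystic females above all double knockouts, and the log2 difference was -0.15 (SE 0.0592, 95% interval -0.28 to -0.03, adjusted p = 0.151). Arpc5l ran from 68.4 to 103 CPM and differed by -0.07 to 0.08 between genotypes.

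Arpc1a and Arpc1b are alternatives for the subunit that contacts activators. Arpc1a ran from 63.2 to 82.8 CPM and differed by -0.03 to 0.09. Arpc1b was the member with the widest spread relative to its mean in Pkd1KO males. In noncystic males its lowest, median and highest levels were 33.5, 37.3 and 46.2 CPM. In Pkd1KO males they were 38.9, 42.1 and 82.9 CPM. In Pkd1KO+ciliaKO males they were 37.0, 41.7 and 44.7 CPM. The Pkd1KO males overlapped both groups except for 3 mice, of which male 3 at 61.9 CPM and male 4 at 82.9 CPM lay far above the rest and male 2, at 46.3 CPM, just above. The log2 difference from noncystic males was 0.40 (SE 0.151, 95% interval 0.08 to 0.72, adjusted p = 0.127), and it ranged from 0.24 to 0.46 as single mice were left out. A fit of the 3 male genotypes together gave 0.42 with an adjusted p of 0.0456. Without the 4 males that stood apart, Pkd1KO male 4 among them, the difference was 0.28 with an adjusted p of 0.139. From Pkd1KO+ciliaKO males, Pkd1KO males differed in Arpc1b by 0.29 (SE 0.138, 95% interval -0.002 to 0.58, adjusted p = 0.257, edgeR).

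The same mice, Pkd1KO males 3 and 4, also held the highest sums of the tubule injury markers in their group, 1633 and 1235 CPM, against a group median of 619 CPM and a noncystic male range of 372 to 744 CPM. These sums are mostly Spp1, at 1474 and 1115 CPM in them, and the other 5 markers summed to 159 and 120 CPM, against 23.5 to 37.3 CPM in the other Pkd1KO males. Among Pkd1KO+ciliaKO males the injury sum was 1295 CPM in male 6 and 935 CPM in male 8. In that group the markers other than Spp1 summed to 28.5 to 59.3 CPM, and Arpc1b was at most 44.7 CPM. The macrophage markers summed to 140 and 382 CPM in Pkd1KO males 3 and 4, against a group median of 120 CPM, 76.6 to 113 CPM in noncystic males and 64.9 to 116 CPM in Pkd1KO+ciliaKO males. In Pkd1KO against noncystic males 2 of 10 macrophage markers (Csf1r and Tyrobp) and 2 of 6 injury markers (Lcn2 and Krt20) passed the test. In this comparison 6.3% of all genes passed. An unadjusted p under 0.05 was held by 9 of 10 and 5 of 6, where 3536 of 15991 genes had one. Spp1 was at 0.65 with an adjusted p of 0.11, and each macrophage marker was detected in every mouse. Markers of other cell types were not alike in males 3 and 4. Male 4 held 312 CPM of endothelial, 858 of fibroblast and pericyte, 90.7 of podocyte and 9.54 of T and B cell markers. Male 3 held 72.1, 474, 51.9 and 2.04 CPM in the same order. Proximal tubule markers summed to 4281 CPM in male 4, the lowest of all mice, and to 7255 CPM in male 3. The part of all these markers in the Arpc1b levels was not tested. Arpin was 57.6 CPM in male 3, 59.6 CPM in male 4 and 59.3 CPM in male 2, against a group median of 53.5 CPM. Male 4 thus held the highest Arpin level of the Pkd1KO males. The part of the markers in these Arpin levels was not tested either.

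In females the spread of Arpc1b was narrower. Its lowest, median and highest levels were 43.4, 52.9 and 56.2 CPM in noncystic, 45.05, 53.0 and 57.9 CPM in Pkd1KO and 45.1, 46.9 and 50.8 CPM in Pkd1KO+ciliaKO females. All 3 ranges overlapped. The log2 difference of Pkd1KO from noncystic was 0.01 (95% interval -0.12 to 0.15). Pkd1KO females exceeded Pkd1KO+ciliaKO females by 0.14 (SE 0.0564, unadjusted p = 0.0279, adjusted p = 0.127), the lowest p of the 9 subunits in that comparison, with 5 of 8 above all double knockouts, and Pkd1KO+ciliaKO lay below noncystic females by -0.13 (unadjusted p = 0.0489, adjusted p = 0.232). Without the 2 females that went against their Kif3a label these were 0.14 and -0.12 (adjusted p = 0.169 and 0.352). The interaction of the difference of Pkd1KO from noncystic with sex was 0.39 (SE 0.144, unadjusted p = 0.0091, adjusted p = 0.399). Over the 3 interactions 0 of 9 subunits passed in edgeR and in DESeq2, with 1, Arpc1b, at an unadjusted p under 0.05. Of 15828 genes, 1279, 1256 and 869 had such a p for Pkd1KO against noncystic, Pkd1KO against Pkd1KO+ciliaKO and Pkd1KO+ciliaKO against noncystic. In the same order 0.0126%, 0.221% and 0.0316% of genes passed in edgeR. Arpc1b shares 931 exon bases (18.2% of its exons) with the antisense gene Pdap1, which held 8452 to 14966 counts per mouse. The strand setting of the counting is not given in the sources used here, so reads of this stretch may belong to either gene.

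Sex was compared in the mice without a homozygous knockout. Between noncystic males and females 2 of 9 subunits passed, 3 of 10 members with Arpin, where 27.5% of all genes passed. Arpc1b was lower in males by a log2 difference of -0.42 (SE 0.0748, adjusted p = 0.000471), with 6 of 7 females above all 8 males. Arpc2 was higher in males by 0.20 (SE 0.0582, adjusted p = 0.0181), from lowest, median and highest levels of 204, 227 and 254 CPM in males and 191, 201 and 222 CPM in females, with 5 of 8 males above all females. Without the library labelled noncystic female 5 these were -0.40 (adjusted p = 0.00145) and 0.19 (adjusted p = 0.0393). Arpc5l lay just past the threshold at 0.17 (SE 0.0606, adjusted p = 0.0513) and passed it without noncystic male 3, noncystic male 6 or noncystic female 6, at adjusted p between 0.0241 and 0.0416.

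TPM allow levels of different genes to be compared within a sex, and the tables of the sexes were normalized separately by the authors. These values divide by the summed length of a gene's annotated exons. That length was 2277 bases for Arpin, 4498 for Arpc5l and 5115 for Arpc1b, against 2276 for Arpc5 and 2567 for Arpc1a. The order between genes depends on these lengths. The order of the subunits was nearly fixed across the 6 groups. Arpc2 was highest, with group means of 329 to 352 TPM, followed by Arpc5 at 220 to 244 TPM, Actr2 at 142 to 175 TPM and Actr3 at 124 to 149 TPM. Arpc4 followed at 96.3 to 108 TPM, and Arpc3 (89.0 to 99.3 TPM) and Arpc1a (82.2 to 99.9 TPM) exchanged places between groups and did not differ beyond the spread of the mice. Arpc5l (59.0 to 64.0 TPM) and Arpc1b (22.6 to 34.1 TPM) were lowest. The subunit mRNAs of a complex with fixed stoichiometry were thus not present at equal levels.

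**Figure D3:**
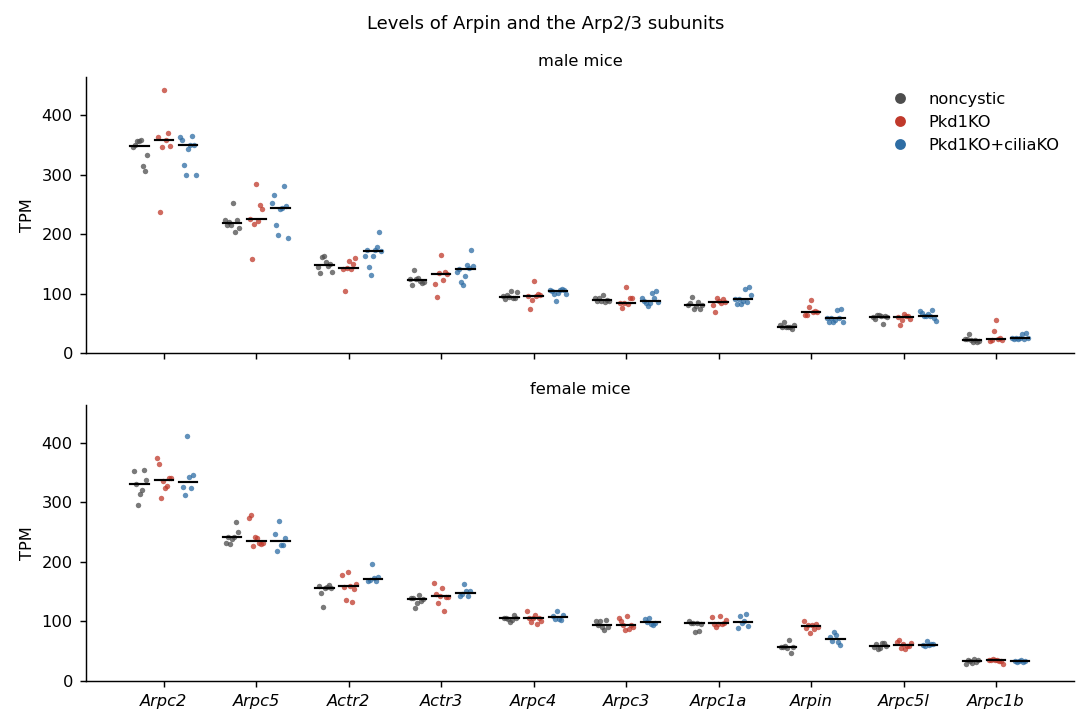
TPM (y axis) of Arpin and the Arp2/3 subunits (x axis, ordered by median) in each mouse, males above and females below; points are mice coloured by genotype and black bars are group medians. The order of the subunits is alike in all groups. By group mean TPM, Arpin lies below Arpc5l in noncystic mice and above it in Pkd1KO mice. Orders between genes depend on the summed exon lengths by which TPM divide.

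In TPM, Arpin was expressed at a level like that of its target's rarer subunits. Its group means were 45.2 ± 3.88 TPM in noncystic, 72.1 ± 9.21 in Pkd1KO and 59.6 ± 8.23 in Pkd1KO+ciliaKO males, and 57.2 ± 6.56, 91.4 ± 6.11 and 71.0 ± 8.32 TPM in the same order in females. Among the coding genes of the tables it stood between percentile 78.1 and percentile 88.4. The ratio of Arpin to the geometric mean of the 9 subunits, formed within each mouse, was 0.438 ± 0.0245 in noncystic, 0.680 ± 0.0538 in Pkd1KO and 0.535 ± 0.0467 in Pkd1KO+ciliaKO males. In females it was 0.507 ± 0.0612, 0.788 ± 0.0526 and 0.598 ± 0.0571. The lowest ratio of any Pkd1KO male, 0.637, exceeded the highest of the Pkd1KO+ciliaKO males, 0.608, and among females 0.689 exceeded 0.653. Without the 2 females that went against their Kif3a label the ratio was 0.491 ± 0.0488 in noncystic (n = 6) and 0.616 ± 0.0387 in Pkd1KO+ciliaKO females (n = 5). This ratio carries no test for the same reason as Arpin.

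Shares of TPM within each mouse describe the transcripts of each paralog pair, not which protein filled the position. Arpc1b made up 21.5% ± 1.95 of the ARPC1 transcripts in noncystic, 25.3% ± 6.58 in Pkd1KO and 21.9% ± 0.733 in Pkd1KO+ciliaKO males, and 26.3% ± 1.95, 25.6% ± 2.10 and 25.05% ± 1.87 in females. Arpc5l made up 21.4% ± 1.21, 20.7% ± 1.42 and 21.3% ± 1.40 of the ARPC5 transcripts in males and 19.6% ± 0.758, 19.9% ± 0.999 and 20.5% ± 0.684 in females. Arpc1a and Arpc5 thus held the larger part of the TPM of their pairs in every group. The size of each share depends on the exon lengths by which TPM divide, and the Arpc1b counts may include reads of Pdap1. In CPM, which are not divided by length, noncystic males averaged 38.2 for Arpc1b and 70.2 for Arpc1a. Arpc5l averaged 89.7 CPM in them and Arpc5 averaged 167 CPM. Over 12 two-sided exact permutation tests of genotype no share passed, with adjusted p between 0.451 and 0.921. The smallest unadjusted p of these exact tests was 0.0402, for an Arpc5l share higher by 0.955 percentage points in Pkd1KO+ciliaKO than in noncystic females. Without the 2 females that went against their Kif3a label this difference was 1.21 percentage points, with an adjusted exact p of 0.26.

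**Figure D4:**
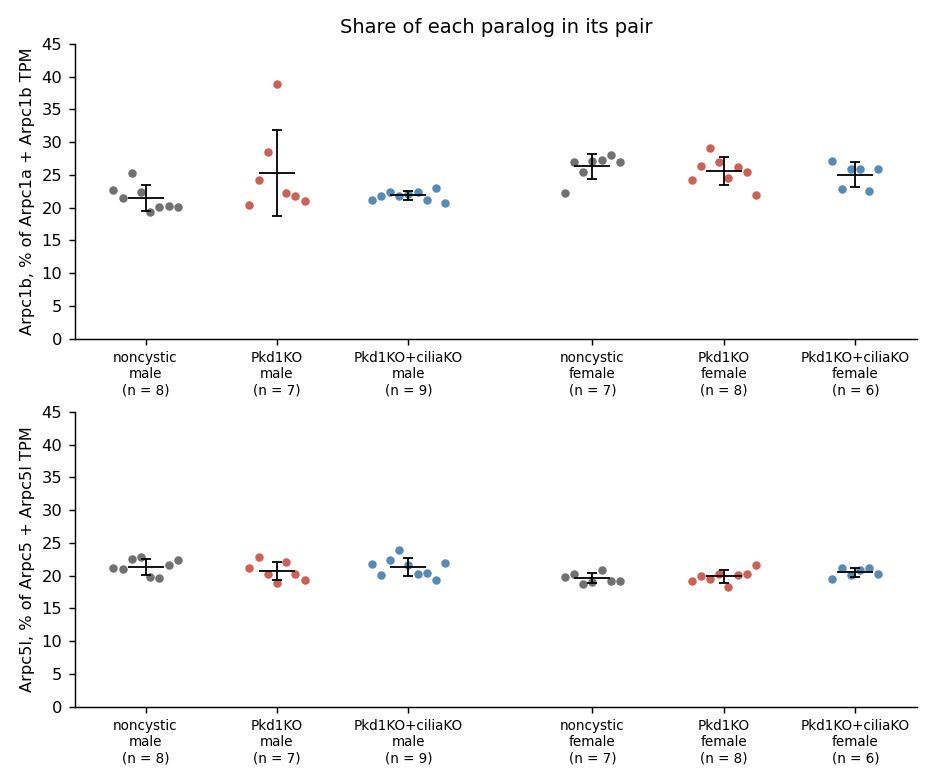
Share of Arpc1b in Arpc1a plus Arpc1b (top) and of Arpc5l in Arpc5 plus Arpc5l (bottom), in percent of TPM (y axis), for each mouse by genotype and sex (x axis); bars with whiskers are mean ± SD. Arpc1b shares lie between 19.3% and 29.0% in the 5 other groups and reach 38.8% in Pkd1KO males; Arpc5l shares lie between 18.2% and 23.9%.

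By the lower of the Pearson correlations in 24 males and 21 females, on log2(CPM + 0.5), the 5 leading genes of 15827 were Glis2 (0.931), a Gli-similar zinc finger transcription factor whose loss causes nephronophthisis, Cables2 (0.901), Pkd2 (0.868), the gene of polycystin-2, Dmkn (0.862) and Ptgds (0.861), a prostaglandin D2 synthase. These correlations are descriptions: the mice share genotypes and libraries. The subunits ranked from 1098 (Arpc1a, 0.324) to 12739 (Actr2, -0.353) by this measure, and the highest value of a subunit in either sex was that of Arpc1b in males, 0.624, against 0.245 in females. Glis2 averaged 186 ± 18.1 CPM in noncystic, 435 ± 35.0 in Pkd1KO and 250 ± 18.5 in Pkd1KO+ciliaKO males, and 209 ± 37.9, 441 ± 49.8 and 221 ± 24.5 CPM in females. Like Arpin, it lay higher in each Pkd1KO mouse than in all other mice of the sex, with larger log2 differences from noncystic of 1.22 in males and 1.08 in females. Dmkn was low, at group means of 0.132 to 0.987 CPM.

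Around the complex, 66 genes cover its activators, brakes and the actin machinery it feeds. Of these, 2 passed the test in Pkd1KO against noncystic males and 2 in females, which is 3.03% of the list in each, where 6.3% and 3.34% of all genes passed. In Pkd1KO against Pkd1KO+ciliaKO the counts were 2 in males (3.03%, against 3.77% of all genes) and 6 in females (9.09%, against 11.7%). In Pkd1KO+ciliaKO against noncystic they were 3 in males (4.55%, against 8.89%) and 1 in females (1.52%, against 2.54%), or 4 without the 2 females that went against their Kif3a label, when the formins Fmnl2 (0.35, adjusted p = 0.0484), Fmn1 (0.32, adjusted p = 0.0348) and Fmnl3 (0.32, adjusted p = 0.0384) passed as well. With all mice, the share of the lists was below that of all genes in each comparison in edgeR. Other tools put it above in some: DESeq2 called 6 of 66 (9.09%) in Pkd1KO against Pkd1KO+ciliaKO males, where it called 7.72% of all genes, and 6 in Pkd1KO+ciliaKO against noncystic females, where it called 8.02%. In the latter limma on log2(TPM + 1) called 8 of 66 (12.1%), against 6.26% of all genes.

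The activators of the complex and the GTPases above them passed no genotype test in edgeR with all mice, except for 1 gene of the WASH complex. The 7 WASP-type genes, 11 WAVE complex genes, 3 branch stabilisers and 5 GTPases held 0 calls in each comparison, with 5, 3, 4, 1, 2 and 5 genes at an unadjusted p under 0.05 in the order used above. DESeq2 called 1, 1, 1, 1, 0 and 0 of these 26 genes, limma voom 1, 1, 0, 0, 2 and 0, and limma on TPM 0, 0, 0, 1, 0 and 2. Wasl (N-WASP) had log2 differences of -0.11 to 0.10 over the 6 comparisons, Wasf2 (WAVE2) -0.05 to 0.08, Rac1 -0.02 to 0.04, Cdc42 -0.07 to 0.10 and Rhoa -0.04 to 0.07. Cttn, whose product cortactin stabilises branches, lay at 0.10 to 0.26, positive in all 6, with adjusted p of 0.119 or more, and without the library labelled noncystic female 5 it passed in Pkd1KO against noncystic females at 0.29 (adjusted p = 0.0317). In the WASH complex, which drives Arp2/3 on endosomes, Washc1 lay at -0.08 to 0.07. Washc5, the strumpellin subunit, was lower in Pkd1KO than in Pkd1KO+ciliaKO females by -0.20 (SE 0.048, adjusted p = 0.015) and higher in Pkd1KO+ciliaKO than in noncystic females by 0.25 (SE 0.0629, adjusted p = 0.0477). Without the 2 females that went against their Kif3a label these were -0.23 (adjusted p = 0.00842) and 0.31 (adjusted p = 0.0144). The latter call was lost, with the 2 libraries kept, in 9 of 13 fits with a mouse left out (without noncystic female 2, 3, 4, 6 or 7 or Pkd1KO+ciliaKO female 2, 3, 4 or 5; adjusted p 0.0629 to 0.0999).

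Among the other brakes of the complex, 1 of 10 genes passed in a genotype comparison, in Pkd1KO+ciliaKO against noncystic males, where 8.89% of all genes did. Coro1b, a coronin that competes with Arp2/3 at branches, was lower in Pkd1KO+ciliaKO than in noncystic males by -0.17 (SE 0.0498, adjusted p = 0.0401), a call lost in 10 of 17 fits with a mouse left out (noncystic male 1, 2, 6 or 7 or Pkd1KO+ciliaKO male 1, 2, 3, 6, 7 or 9; adjusted p 0.0546 to 0.0818). Pick1, a further Arp2/3 inhibitor with an acidic tail, lay at -0.22 to -0.06 in the 6 comparisons with adjusted p of 0.164 or more, so its values ran opposite to those of Arpin in the Pkd1KO comparisons without passing the test. Coro1a, a coronin of blood cells, lay at 0.03 to 1.30 and reached 28.0 CPM in a Pkd1KO male. Its highest difference, in Pkd1KO against noncystic males, stood beside those of the blood cell genes Rac2 (1.69) and Was (1.42), at adjusted p of 0.108, 0.0906 and 0.156 in that order of naming, in the comparison in which macrophage markers summed to 103 to 382 CPM against 76.6 to 113 CPM. Their part in these differences was not tested. Actr3b, a paralog of Actr3 outside the member list, was read at 0.285 to 1.19 CPM, with a log2 difference of 0.68 in Pkd1KO against noncystic males (adjusted p = 0.127).

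Actb, the gene of beta-actin and thus of a substrate of the complex, passed in 4 of 6 genotype comparisons, more than any other of the 66 genes. Comparisons of Pkd1KO mice within a sex share those mice, so these calls are not independent of each other. In males its lowest, median and highest levels were 1526, 1535 and 1619 CPM in noncystic, 1768, 2052 and 2527 CPM in Pkd1KO and 1459, 1601 and 1884 CPM in Pkd1KO+ciliaKO mice. In females they were 1440, 1716 and 1959, then 1952, 2088 and 2255, then 1552, 1651 and 1733 CPM. Each Pkd1KO male lay above the noncystic males and each Pkd1KO female above the double knockouts, while 7 of 8 Pkd1KO females lay above the noncystic females and 6 of 7 Pkd1KO males above the double knockouts. Full separation with Pkd1KO higher was seen in 1.41% of genes against noncystic males and in 2.02% against double knockout females. The log2 difference from noncystic was 0.44 in males (SE 0.0803, adjusted p = 0.00314) and 0.27 in females (SE 0.0709, adjusted p = 0.042), and from Pkd1KO+ciliaKO 0.35 in males (SE 0.0876, adjusted p = 0.0341) and 0.34 in females (SE 0.0622, adjusted p = 0.00307). Pkd1KO+ciliaKO and noncystic mice differed by 0.10 in males and -0.07 in females (adjusted p = 0.396 and 0.594).

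Of these 4 calls on Actb, 2 lay near the threshold. In Pkd1KO against noncystic females the call was lost in 11 of 15 fits with a mouse left out (noncystic female 1, 4, 5, 6 or 7 or Pkd1KO female 1, 2, 4, 6, 7 or 8; adjusted p 0.0567 to 0.0984), while the difference stayed between 0.23 and 0.30, noncystic female 5 being the library that went against its Kif3a label (0.27, adjusted p = 0.0655 without it). In Pkd1KO against Pkd1KO+ciliaKO males it was lost in 10 of 16 (Pkd1KO male 2, 3, 4, 5 or 6 or Pkd1KO+ciliaKO male 3, 5, 6, 7 or 8; adjusted p 0.0504 to 0.0644), while the difference stayed between 0.30 and 0.39, and without the 4 males that stood apart the difference was 0.26 (adjusted p = 0.0841). On the TPM scale none of the 4 passed, at adjusted p between 0.0543 and 0.292.

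Diaph3, a formin that elongates unbranched filaments, had the largest log2 difference of the 66 genes in Pkd1KO against noncystic males. It was scarce, at lowest, median and highest levels of 0.796, 1.25 and 2.66 CPM in noncystic, 2.44, 3.91 and 9.53 CPM in Pkd1KO and 1.71, 2.82 and 4.71 CPM in Pkd1KO+ciliaKO males. In females it was read at 1.29, 1.62 and 1.92, then 1.56, 2.77 and 3.65, then 1.98, 2.03 and 3.15 CPM. Pkd1KO exceeded noncystic by 1.85 on the log2 scale in males (SE 0.291, adjusted p = 0.00127) and by 0.82 in females (SE 0.162, adjusted p = 0.00843), and Pkd1KO+ciliaKO exceeded noncystic by 1.14 in males (SE 0.215, adjusted p = 0.00273). Pkd1KO and Pkd1KO+ciliaKO differed by 0.70 and 0.24 in males and females (95% intervals 0.17 to 1.24 and -0.14 to 0.62, adjusted p = 0.131 and 0.407). Without the 2 females that went against their Kif3a label the female difference from noncystic was 0.83 (adjusted p = 0.013). Its highest levels stood in Pkd1KO males 4 (9.53 CPM) and 3 (7.09 CPM). These mice held the most Arpc1b and, among the Pkd1KO males only, the highest sums of injury markers.

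**Figure D5:**
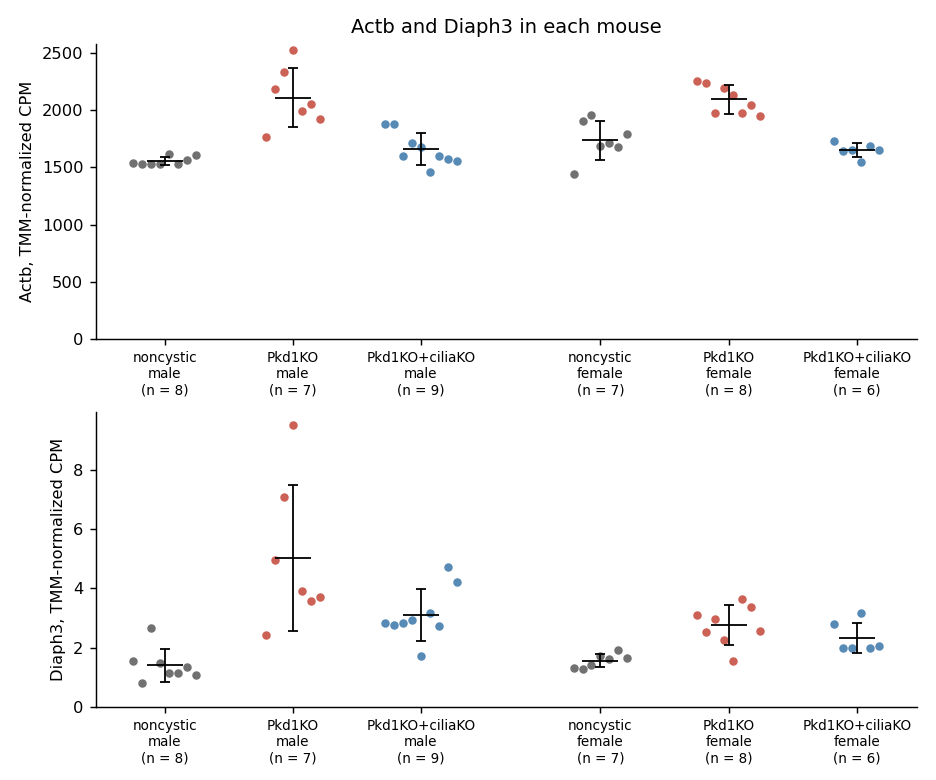
Actb (top) and Diaph3 (bottom) in TMM-normalized CPM (y axis) in each mouse by genotype and sex (x axis); points are mice, bars with whiskers mean ± SD. Actb lies at 1768 to 2527 CPM in Pkd1KO males against 1526 to 1619 CPM in noncystic males, and Diaph3 reaches 9.53 CPM in Pkd1KO males.

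Other filament genes moved singly. Fmnl1, a formin known from blood cells, was higher in Pkd1KO than in Pkd1KO+ciliaKO males by 0.54 (SE 0.118, adjusted p = 0.0146) and females by 0.65 (SE 0.195, adjusted p = 0.0419), lower in Pkd1KO+ciliaKO than in noncystic males by -0.67 (SE 0.153, adjusted p = 0.0104), and higher in noncystic males than females by 1.37 (SE 0.202, adjusted p = 8.16e-05). The female call was lost in 8 of 14 fits with a mouse left out (Pkd1KO female 1, 7 or 8 or Pkd1KO+ciliaKO female 1, 2, 3, 5 or 6; adjusted p 0.0525 to 0.0845), and stood at 0.63 with an adjusted p of 0.0726 without Pkd1KO+ciliaKO female 6, the library that went against its label. Twf2, a twinfilin that sequesters actin monomers, was higher in Pkd1KO than in Pkd1KO+ciliaKO females by 0.27 (adjusted p = 0.0135). The formins Fhod3 and Diaph2 were lower there by -0.37 and -0.25 (adjusted p = 0.0373 and 0.0434), lost in 9 and 11 of 14 fits with a mouse left out. For Fhod3 these were Pkd1KO female 1, 2, 5, 6, 7 or 8 and Pkd1KO+ciliaKO female 1, 3 or 4 (adjusted p 0.0523 to 0.0869), and for Diaph2 each female of the 2 groups other than Pkd1KO 1 and 4 and Pkd1KO+ciliaKO 1 (0.0523 to 0.0948). Cfl1, the gene of cofilin, lay at -0.12 to 0.16 with adjusted p of 0.067 or more.

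Between noncystic males and females 15 of the 66 genes passed, 9 higher and 6 lower in males, or 22.7% of the lists, where 15.3% of all genes were higher and 12.2% lower. Washc4 (0.45), Whamm (0.44) and Coro7 (0.65) were higher in males, and Diaph1 (-0.40), Abi2 (-0.33) and Actg1 (-0.30) were lower. Without the library labelled noncystic female 5, Capza2, Cyfip2 and Gmfb no longer passed (adjusted p = 0.0619, 0.0566 and 0.067).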

How the data were processed

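Per the submitters' processing notes and the study's methods, trimming used fastp 0.20.0, alignment STAR 2.7.9 (GRCm38.p6, GENCODE vM25) and counting featureCounts 2.0.0; strand and multimapping options are not given in the sources used here. The authors deposited raw counts for all mice of a sex and, in another table for each sex, TPM of those coding genes that passed a filter on low counts. Each mouse, as labelled, was a replicate, and all libraries were sequenced in a single batch. Here coding genes were kept where 20% or more of a sex's mice had 6 or more counts, and were tested in pairs of groups within a sex with the edgeR 4.0.16 quasi-likelihood test (R 4.3.3, TMM, Benjamini-Hochberg, adjusted p of at most 0.05); the interaction with sex was fitted on all 45 mice. CPM are TMM-normalized. Alternatives were DESeq2 1.42.0, limma 3.58.1 (voom, and log2(TPM + 1) or log2(TPM + 0.1)), DESeq2 size factors, no filter, all gene classes, joint fits, a replicate block and omitted libraries. Paralog shares were compared with exact permutation tests. Tables were made with Python 3.11.15, pandas 2.3.3 and numpy 2.4.6. The edgeR step was tested on simulated data. With 80874556 to 132958186 counts per mouse, a floor of 3 counts was 0.0226 to 0.0371 CPM, for counting error only. GENCODE vM21 gave gene classes and overlaps.

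Named genes are all members; list genes that passed a test, up to 4 per list; 11 pathway genes regardless of call; the 5 genes most like Arpin; and overlapping or neighbouring genes. Rac2 and Was were named after their values were seen. Members and lists were chosen with earlier results of these data known.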

Additional observations from a re-analysis of the deposited data

Results flagged for a closer look

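In 4 of 78 groups of values looked at, 1 mouse lay apart from the others of its group by a gap that was large beside the group's range; chance alone sets apart about 1 in 20 such groups. Arpin in Pkd1KO female 4 was 52.9 CPM, where the next lowest Pkd1KO female held 62.0 CPM. Actr2 in noncystic female 3 was 206 CPM, where the next lowest held 237 CPM. Arpc1a in Pkd1KO male 4 was 65.6 CPM, where the next lowest held 72.7 CPM, and this was the mouse with the highest Arpc1b level of the males, 82.9 CPM. Arpc3 in Pkd1KO+ciliaKO female 1 was 86.6 CPM, where the next highest held 76.9 CPM.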

How the results depend on the processing

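Counts of subunits stayed at 0 in the 6 genotype comparisons under all alternatives except that the 3 male genotypes in a single fit gave 1 in Pkd1KO against noncystic (Arpc1b) and limma voom gave 1 in Pkd1KO+ciliaKO against noncystic females (Arpc5). Counts of regulator and actin genes were small and moved. Against 2 in Pkd1KO and noncystic males, DESeq2 gave 4, the joint fit 6, voom 4 and TPM with either pseudocount 1. Against 2 in the females, no filter, all gene classes and TPM with either pseudocount each gave 1, and leaving out single mice 1 to 4 (1 without noncystic female 4 and others, 4 without Pkd1KO female 3). Against 2 in Pkd1KO and Pkd1KO+ciliaKO males, DESeq2 gave 6, the joint fit 5, voom 5, TPM with either pseudocount 1 and leaving out mice 1 to 3. Against 6 in the females, leaving out mice gave 3 to 7. Against 3 in Pkd1KO+ciliaKO and noncystic males, voom gave 6 and leaving out mice 2 to 9 (9 without noncystic male 3). Against 1 in the females, DESeq2 gave 6, no filter and all gene classes 0, voom 6, TPM with either pseudocount 8, leaving out both females that went against their Kif3a label 4, and leaving out single mice 0 to 4. Arpin in Pkd1KO against Pkd1KO+ciliaKO males was 0.27 on log2(TPM + 1) and 0.28 on log2(TPM + 0.1). Arpin in Pkd1KO+ciliaKO against noncystic females passed on log2(TPM + 1) at 0.31 (adjusted p = 0.0496), on log2(TPM + 0.1) at 0.31 (adjusted p = 0.0484) and without both discordant females at 0.27 (adjusted p = 0.0498). The sex difference of Arpin ranged from -0.23 to -0.15 as mice were left out, at -0.15 without the discordant females (adjusted p = 0.0702). Values near 0 changed sign: Arpc1b in Pkd1KO against noncystic females was -0.00185 in the joint fit, -0.0215 with voom and -0.0276 to 0.0305 as mice were left out; Arpc4 there was 0.0055 on TPM with either pseudocount; Arpc1b in Pkd1KO+ciliaKO against noncystic females was 0.000369 and 0.000482 on TPM; and the Arpc5l share in Pkd1KO+ciliaKO against noncystic males was 0.531 percentage points without the 4 males apart and -0.39 to 0.179 as mice were left out. The causes were not tested.

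The replicate numbers did not pair the mice: between same-numbered mice the correlation of deviations from the group mean was above 0.1 in all pairs of no comparison (0 to 4 pairs of 6 to 8), and at most 2 mice correlated best with their own number. With a replicate block the regulator count was 1 in Pkd1KO against noncystic females, 1 in each sex for Pkd1KO against Pkd1KO+ciliaKO and 0 in Pkd1KO+ciliaKO against noncystic females, and the count of members that differed by sex was 1, with Arpin at -0.19 (adjusted p = 0.0842) and Arpc2 at 0.20 (adjusted p = 0.0602).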
